A study of Mus musculus with 1 sample.

Results

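Proliferating macrophages were the macrophages of MC38 tumors that carried at least 3 UMIs (distinct captured transcript molecules) of Mki67 and Top2a together. A cell counted as a macrophage when it had, per 10000 of its UMIs, at least 10 of C1qa, C1qb and C1qc summed, at least 5 of Tyrobp and Fcer1g summed, and fewer than 1 of the tumor cell genes Rhox5 and Shisal2b summed. Of 1314 macrophages, 201 met the rule, 15.3% of them (13.4% to 17.4%) and 4.33% of the 4640 cells that passed the filters. The comparison group, called other macrophages here, was the 739 macrophages with 0 UMIs of both genes, and the 374 macrophages with 1 or 2 UMIs belonged to neither group. All 201 members entered the main comparisons with other macrophages, and none of them also met the rule of another cell type.

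The study asked how the proton pump subunit ATP6V0A1 of colorectal cancer cells shapes the immune cells around them. Its single-cell arm pooled 5 subcutaneous MC38 tumors in equal proportions, grown in the flanks of immunocompetent C57BL/6J mice with genotype WT, and MC38 is a mouse colon carcinoma line from the same strain. The methods give female animals 4 to 6 weeks old and describe a pool of tumors from MC38 shNTC control cells and another from shv0a1 knockdown cells. The library used here carries the label WT and no shRNA in its label, so it is treated as the control pool, and the knockdown pool was not analysed here.

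The tissue had been dissociated with an enzyme kit and freed of red blood cells, and the library was a 10x Genomics 3' v3.1 library. It held 32285 genes and 5307 called cells with 106631000 UMIs and a median of 9248 UMIs per cell. More than 20% mitochondrial UMIs removed 667 cells, and 0 cells fell below 200 genes. Cells carry no tag of their tumor, so there was 1 library without replicates, and no test between groups was run. Intervals in parentheses are 95% intervals, namely Clopper-Pearson (shares), Poisson (levels) and conditional (ratios), all exact, and they cover counting error only, since cells of 1 pool are not replicates.

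Macrophages in tissue are renewed both by incoming blood monocytes and by division on the spot, which depends on the receptor CSF1R, and dividing macrophages are a recurrent population in mouse tumors. A cell that enters the cycle switches on genes of DNA replication through E2F factors, and after replication it switches on genes of mitosis through a second set of factors that bind CCAAT boxes and a short element named CHR. Mki67 encodes Ki-67, a protein that coats mitotic chromosomes, Top2a the topoisomerase that untangles replicated DNA, Birc5 the chromosomal passenger survivin, and C1qa a chain of complement C1q, a product of macrophages.

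The promoters of 5 cycle genes are printed because the genes of mitosis moved together in the members. They are those of Mki67 and Top2a, which chose the members, of Birc5, a marker the rule did not use, and of Ube2c and Mcm3. The last pair had the highest level in members among genes of the mitotic lists and of the replication list, respectively, whose promoter held at least 2 kinds of motif. Each runs 5′ to 3′ on the strand of its gene, from 250 bases before to 50 bases after the start, as RefSeq gives it for GRCm38.p6. Capitals mark the motifs searched on both strands, which were CHR as TTTGAA or TTTAAA, the CCAAT box as CCAAT, and E2F as TTTCCCGC, TTTCGCGC, TTTGCCGC or TTTGGCGC. The windows are chr7:135716330-135716629, minus strand, for Mki67, chr11:99024140-99024439, minus strand, for Top2a, chr11:117848987-117849286, plus strand, for Birc5, chr2:164769679-164769978, plus strand, for Ube2c, and chr1:20820263-20820562, minus strand, for Mcm3.
Mki67: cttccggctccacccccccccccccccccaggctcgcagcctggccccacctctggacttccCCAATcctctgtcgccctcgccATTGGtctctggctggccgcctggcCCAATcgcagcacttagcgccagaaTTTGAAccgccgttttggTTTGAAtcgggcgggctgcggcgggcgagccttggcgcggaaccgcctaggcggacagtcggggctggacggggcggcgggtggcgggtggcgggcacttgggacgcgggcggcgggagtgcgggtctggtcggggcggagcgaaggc
Top2a: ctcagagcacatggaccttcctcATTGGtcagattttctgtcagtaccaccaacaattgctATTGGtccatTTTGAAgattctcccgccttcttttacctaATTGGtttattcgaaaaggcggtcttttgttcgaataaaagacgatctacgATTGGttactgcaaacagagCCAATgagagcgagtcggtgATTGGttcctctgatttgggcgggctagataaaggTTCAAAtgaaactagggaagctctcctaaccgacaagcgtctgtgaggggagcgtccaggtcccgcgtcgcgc
Birc5: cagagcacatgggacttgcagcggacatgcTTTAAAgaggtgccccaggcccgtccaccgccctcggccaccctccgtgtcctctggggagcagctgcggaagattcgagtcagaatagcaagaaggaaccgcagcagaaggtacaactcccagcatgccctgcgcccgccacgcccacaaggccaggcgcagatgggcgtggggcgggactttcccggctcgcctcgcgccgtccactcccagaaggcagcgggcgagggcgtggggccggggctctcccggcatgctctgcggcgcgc
Ube2c: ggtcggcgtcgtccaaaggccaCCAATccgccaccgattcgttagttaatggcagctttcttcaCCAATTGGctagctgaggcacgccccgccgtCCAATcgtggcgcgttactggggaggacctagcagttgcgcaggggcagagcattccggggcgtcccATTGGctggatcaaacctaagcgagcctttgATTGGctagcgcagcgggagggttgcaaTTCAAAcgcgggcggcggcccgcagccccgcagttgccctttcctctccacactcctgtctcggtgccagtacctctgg
Mcm3: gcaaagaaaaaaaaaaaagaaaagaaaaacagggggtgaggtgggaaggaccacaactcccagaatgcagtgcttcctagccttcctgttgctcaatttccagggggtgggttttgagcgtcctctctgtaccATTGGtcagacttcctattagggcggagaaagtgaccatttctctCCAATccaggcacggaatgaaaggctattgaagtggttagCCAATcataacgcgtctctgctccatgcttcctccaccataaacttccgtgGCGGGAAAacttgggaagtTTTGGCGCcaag

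The Top2a promoter held 6 CCAAT boxes and 2 CHR matches and that of Mki67 3 CCAAT boxes and 2 CHR matches. Birc5 had 1 CHR match and none of the other motifs in this window, and Ube2c 6 CCAAT boxes and 1 CHR match, where a pair of the CCAAT boxes overlap by 2 letters on opposite strands and are both counted. Mcm3, a subunit of the replicative helicase, had 3 CCAAT boxes, 2 E2F matches and no CHR match. Of the 79 genes of the mitotic lists, 69 had a promoter in the table, with 76 promoters in all. A CHR match stood in 65.8% of these (54.0% to 76.3%), against 27.6% of all 32851 promoters in the table, and a CCAAT box in 72.4% (60.9% to 82.0%) against 37.4%. An E2F match was present in 3.95% (0.822% to 11.1%), against 2.26% of all promoters. Among the promoters of the Hist genes, which encode the replication-dependent histones and were found for 61 of 67 genes, 85.5% (74.2% to 93.1%) held a CCAAT box, 64.5% (51.3% to 76.3%) a CHR match and 16.1% (8.02% to 27.7%) an E2F match. For the replication list a promoter was found for 31 of 39 genes, under the 80% needed, so the shares of that list are void and not given. A match describes letters in the window and is not a measured binding site.

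Mki67 (ENSMUSG00000031004, GRCm38 chr7:135689784-135716361, minus strand) stood at 383 CPM (361 to 406) in the members, where CPM means UMIs of the gene per 1000000 UMIs, with all cells of a group summed first. Top2a (ENSMUSG00000020914, chr11:98992943-99024189, minus strand) stood at 495 CPM (470 to 521). The members were chosen by these UMIs, so both values only describe the choice, and they held a median of 10 UMIs of the pair and at most 81. UMIs of both genes were present in 183 members, of Mki67 alone in 5 and of Top2a alone in 13. Across the threshold, Birc5 (ENSMUSG00000017716, chr11:117849251-117855743, plus strand) shows how far the choice carried over to a gene it did not use. In the 76 macrophages just outside the rule, with 2 UMIs, Birc5 was at 41.0 CPM (27.2 to 59.3), and in the 32 members just inside, with 3 UMIs, at 52.3 CPM (31.0 to 82.7). It was at 278 CPM (202 to 373) in the 16 members with 4 UMIs and at 381 CPM (357 to 406) in the 153 members with 5 UMIs or more, against 26.7 CPM (22.7 to 31.2) in the other macrophages. The median summed level of the genes of mitosis stepped up in the same place, from 18.3 per 10000 UMIs at 2 UMIs and 25 at 3 UMIs to 87.4 at 4 and 112 at 5 or more. The members with 3 UMIs therefore lay nearer to the cells just outside the rule than to the other members, on both measures, while depth differed little between the cells with 2 and 3 UMIs, with medians of 9325.5 and 10028.

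**Figure D1:**
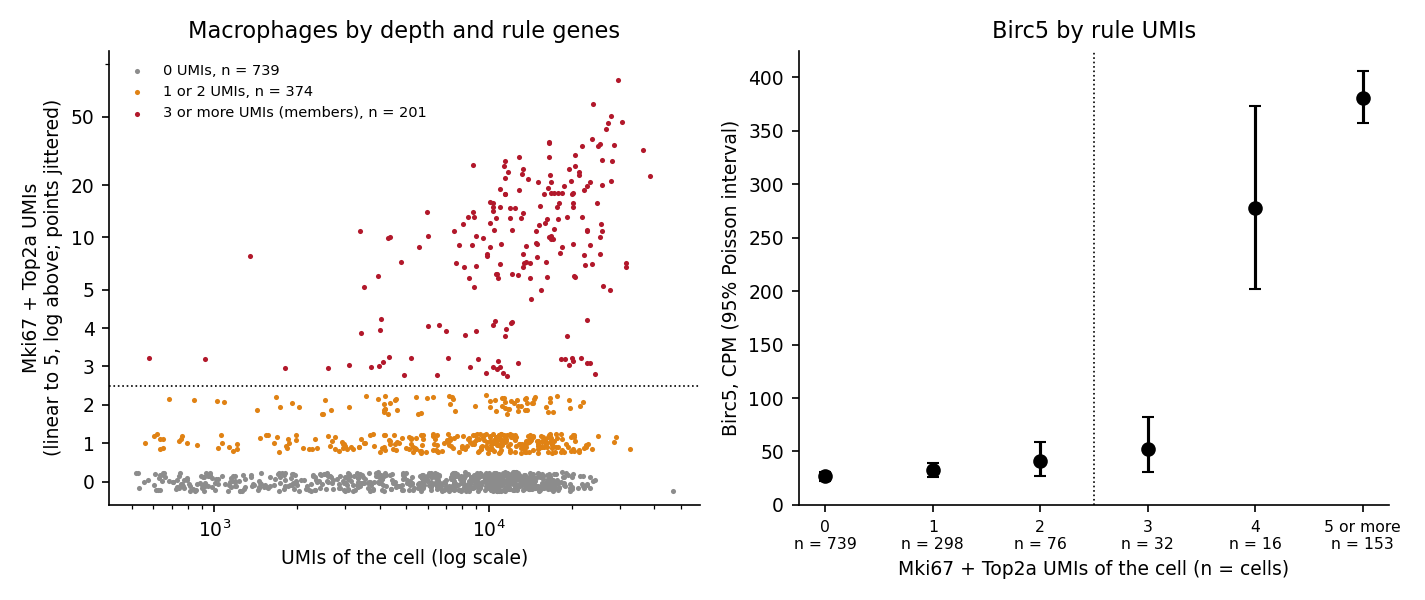
Left, UMIs of Mki67 and Top2a against all UMIs of the cell (log scale) for the 1314 macrophages, 1 point per cell, with the 201 members above the dotted line. Right, Birc5 in CPM with 95% Poisson intervals by UMIs of the pair, where 3 UMIs (52.3 CPM) lay near 2 UMIs (41.0 CPM) and 4 UMIs reached 278 CPM.

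The members carried the markers of macrophages. A UMI of C1qa (ENSMUSG00000036887, chr4:136895917-136898803, minus strand), which the rule used, was present in 99.0% of them. Among markers the rule did not use, Csf1r, the receptor for CSF1, was detected in 93.5% of members (89.2% to 96.5%), the lysosomal protein gene Cd68 in 93.5%, the Fc receptor gene Fcgr1 in 91.5%, Adgre1, which encodes F4/80, in 74.6% and the phagocytosis receptor gene Mertk in 33.3%. In tumor cells, which should lack these genes and were deeper (median 40739 UMIs against 13599 in members), the shares were 12.5% for Csf1r, 14.5% for Cd68, 8.08% for Fcgr1, 7.26% for Adgre1 and 7.65% for Mertk. C1qa had a UMI in 64.9% of tumor cells, and the source of these UMIs was not tested. The label of the library gives epithelial cells as the cell type. In the members the epithelial genes Krt8, Krt18 and Epcam had 0 UMIs, which allows up to 1.0 CPM each. The 999 proliferating tumor cells held only 2, 0 and 5 UMIs of these genes, so their absence does not separate members from tumor cells.

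Genes of other cell types were low in the members. The 10 markers of T and NK cells summed to 5.02 CPM against 10.7 CPM in other macrophages, with Nkg7 the most abundant and Cd3e, Ncr1 and Gzma at 0 in members. The 4 B cell markers summed to 21.1 CPM against 22.3 CPM, nearly all of it Cd79b (20.8 CPM), with Cd79a at 0, and the 7 dendritic cell markers to 13.4 CPM against 19.0 CPM, with Fscn1 the most abundant and Flt3 and Ccr7 at 0. Granulocyte markers, 6 genes led by Csf3r, summed to 24.1 CPM against 65.5 CPM, with Retnlg and Cxcr2 at 0. The 7 fibroblast markers summed to 217 CPM against 355 CPM, led by the collagen gene Col3a1 at 99.8 CPM against 175 CPM, and the 4 endothelial markers to 21.4 CPM against 39.4 CPM, led by Pecam1. The 6 tumor cell genes summed to 38.5 CPM (31.8 to 46.2) against 37.5 CPM (32.8 to 42.7). Rhox5 and Shisal2b, which the macrophage rule had capped, made up 65 of the 115 UMIs in members, so this sum was held low by the choice. Col5a1, which the rule did not use, led at 16.7 against 19.8 CPM, compared with 129 CPM in proliferating tumor cells. A UMI of Rhox5 or Shisal2b was present in 27.4% of members (21.3% to 34.1%) and 13.4% of other macrophages (11.0% to 16.1%). Their summed level was 21.8 against 17.5 CPM, compared with 932 CPM in proliferating tumor cells. The rule had capped this level in macrophages, so its gap to tumor cells follows from the choice. That gap cannot show that members were free of tumor cell RNA. Xist, the RNA of the inactive X chromosome, separated host cells from tumor cells, at 1108 CPM (1070 to 1146) in members, 640 CPM (620 to 661) in other macrophages and 2.45 CPM in proliferating tumor cells. In a score built from simulated doublets, 9 members (4.48%) and 20 other macrophages (2.71%) were among the 197 cells marked. The part of these cell types and of doublets in the results that follow was tested only by the alternatives without marked cells and without cells that held a UMI of Rhox5 or Shisal2b.

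Members were deeper than other macrophages, with medians of 13599 and 7638 UMIs and of 3452 and 2272 genes, and their UMI counts ran from 581 to 38662. Mitochondrial and ribosomal shares of UMIs were similar, with medians of 2.54% and 16.8% in members and 2.35% and 18.1% in other macrophages. A rule in UMIs favors deep cells, and the share of members rose from 4.56% (2.57% to 7.41%) in the lowest quartile of UMIs through 9.76% and 16.2% to 30.7% (25.8% to 36.0%) in the highest. After every cell was thinned to 5000 UMIs, which left out the 380 shallower macrophages, 121 of 934 met the rule, or 13% (10.9% to 15.3%). The thinned share still rose with original depth, from 7.58% (4.75% to 11.4%) in the second quartile through 10.7% to 21.0% (16.7% to 25.8%) in the highest. All 329 cells of the lowest quartile were too shallow to thin. The summed level of Mki67 and Top2a did not rise steadily. It was 240 CPM (204.9 to 279.5) in the lowest quartile, then 165 and 192 CPM, and 305.5 CPM (291.6 to 319.8) in the highest. With at least 1 UMI in place of 3 the share was 43.8%, and with at least 2 UMIs per 10000 UMIs of the cell it was 23.1%.

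Division was not particular to macrophages in these tumors. At the same 3 UMIs, 999 of 1831 tumor cells (54.6%, 52.3% to 56.9%) were proliferating, at a median of 40739 UMIs, against 15.3% of macrophages at 9378.5 UMIs. Thinned to 5000 UMIs the shares were 22.0% (20% to 24.0%) and 13% (10.9% to 15.3%), a smaller gap whose intervals still did not meet. Proliferating cells made up 11 of 86 T and NK cells (12.8%, 6.56% to 21.7%), 9 of 101 monocytes (8.91%, 4.16% to 16.2%) and 13 of 102 fibroblasts (12.7%, 6.96% to 20.8%), shares whose intervals overlapped that of the macrophages. These cells were shallower, with medians of 4993, 4292 and 1103.5 UMIs, and after thinning the shares were 11.6% (3.88% to 25.1%, 5 of 43), 14.3% (5.43% to 28.5%, 6 of 42) and 28.6% (11.3% to 52.2%, 6 of 21), again with intervals that overlapped that of the macrophages. The summed level of Mki67 and Top2a differed more than these shares. It was 472 CPM (411 to 540) in fibroblasts, 337 CPM (333 to 341) in tumor cells and 244 CPM (235 to 252) in macrophages. Monocytes stood at 219 CPM (183 to 259) and T and NK cells at 193 CPM (159 to 233). Granulocytes do not divide, and 1 of 18 met the rule (5.56%, 0.141% to 27.3%) at a median of 610 UMIs, too few and too shallow for a close limit.

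Of 7804 genes with at least 10 CPM in either group, 561 (7.19%) were higher in members than in other macrophages by 2 times or more and 89 (1.14%) were lower by 2 times or more, with a median log2 ratio of 0.12. The rule had used this contrast, so these counts and all levels below describe the members and support nothing beyond that. The 9 lists of cycle genes and the Hist genes held 295 genes, of which 216 were higher by 2 times or more and 0 were lower by as much. Among genes with at least 50 CPM in the higher group, the 15 highest ratios comprised Mki67, Top2a, 11 genes of these lists, Esco2 and Pclaf. Esco2, the acetyltransferase that locks sister chromatids together during replication, was at 56.3 CPM against 1.0 CPM, a ratio of 56.2 (25.3 to 155). Pclaf, a partner of the sliding clamp PCNA, was at 432 CPM against 17.8 CPM, a ratio of 24.2 (19.9 to 29.8). Outside the lists, the next were Cdca3, a trigger of mitotic entry, at 18.6 (14.4 to 24.5), the noncoding RNA Lockd at 12.1 (8.26 to 18.1), the spindle gene Knstrn at 11.3 (7.98 to 16.4), the histone chaperone partner Hirip3 at 7.34 (5.32 to 10.3) and Dbf4, the activator of the replication kinase CDC7, at 6.25 (4.57 to 8.66). Gm43305, without a known role, followed at 4.77 (3.93 to 5.82), with a UMI in 67.7% of members and 4.81% of the deeper tumor cells, and then Dnajc9, a histone chaperone gene, at 4.31 (3.40 to 5.50), Iqgap3, Cmc2, Pmf1 and Lsm2. The count of 561 became 254 with at least 1 UMI in place of 3, of which 251 were shared, and 186 with at least 50 CPM, and the count of 89 lay between 15 and 224 over 14 alternatives.

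**Figure D2:**
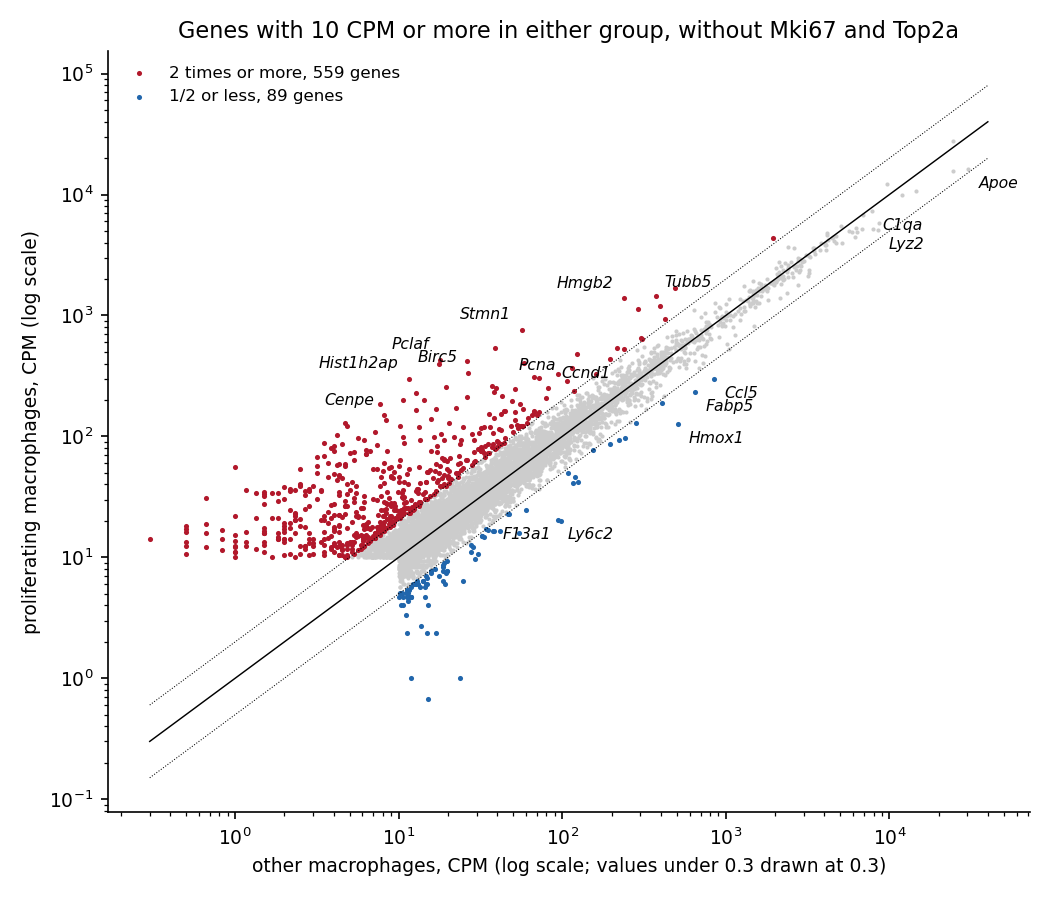
Level of each of the 7804 genes tested, without Mki67 and Top2a, in the 201 members against the 739 other macrophages, both in CPM on log scales, with dotted lines at 2 times in either direction. Red points are higher in members by 2 times or more and blue points lower, and Pclaf stood at 432 against 17.8 CPM and Hmox1 at 126 against 509 CPM.

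The cyclins that answer to growth signals differed little, whereas those of the later cycle were much higher. Ccnd1, which encodes cyclin D1, was at 250 CPM in members and 230 CPM in other macrophages, a ratio of 1.09 (0.995 to 1.19), and Ccnd2 at 103 and 108 CPM (0.957, 0.833 to 1.10). Neither differed detectably at this depth, as both intervals held 1. Ccne1 and Ccne2, the E cyclins of entry into S phase, had ratios of 4.06 (2.80 to 5.97) and 6.65 (3.75 to 12.5). Ccna2, the cyclin of S phase and early mitosis, stood at 96.4 against 5.67 CPM, a ratio of 17 (11.9 to 25), and the mitotic cyclin Ccnb1 at 84.4 against 7.34 CPM (11.5, 8.32 to 16.2). Their kinase Cdk1 was at 210 against 26.0 CPM (8.07, 6.76 to 9.68). Cdc25c, a phosphatase that activates this kinase, had 54 UMIs in members and 3 UMIs in other macrophages, a ratio of 36.2 (11.7 to 181). In all, 18 of 25 tested genes of the list of cyclins, CDKs and inhibitors were higher by 2 times or more and 0 were lower by as much, with a median log2 ratio of 2.43.

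Inhibitors of CDKs were not lower in the members. Cdkn1a, which encodes p21, was at 178 CPM in each group, a ratio of 1.0 (0.902 to 1.11), and Cdkn1b, which encodes p27, at 77.3 against 55.8 CPM (1.39, 1.17 to 1.64). The INK4 inhibitor genes Cdkn2c and Cdkn2d were higher, with ratios of 6.33 (4.61 to 8.83) and 6.07 (4.81 to 7.70). Of 12 tested p53 targets and antiproliferative genes, 0 were higher by 2 times or more and 1, the damage response gene Gadd45a at 4.69 against 14.5 CPM, was lower by as much, with a median log2 ratio of -0.33. Btg2, an antiproliferative gene, was at 544 against 675 CPM (0.805, 0.760 to 0.853).

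Among the regulators upstream, 8 of 15 were higher by 2 times or more, with a median log2 ratio of 1.29. The repressors E2f7 and E2f8, which close the E2F program, had ratios of 26.8 (8.53 to 135, from 40 against 3 UMIs) and 10.5 (6.82 to 16.8). Foxm1 and Mybl2, factors of mitotic gene expression, had ratios of 10.6 (6.56 to 18.1) and 8.53 (4.49 to 17.6). E2f1, an activator, was at 35.8 against 20.8 CPM (1.72, 1.32 to 2.24), and Rb1, the brake on E2F, at 25.8 against 21.0 CPM (1.23, 0.912 to 1.64). Mxd4, a MYC antagonist of resting cells, was the 1 gene of the list that was lower, at 19.4 against 37.0 CPM (0.525, 0.386 to 0.703).

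Genes of DNA replication were higher as a group. Of 37 tested genes of origin licensing and the replication fork, 31 were higher by 2 times or more, 0 were lower by as much and the median log2 ratio was 1.52. Their summed level was 2079 CPM (2028 to 2132) in members and 748 CPM (727 to 771) in other macrophages, a ratio of 2.78 (2.67 to 2.89). The sliding clamp gene Pcna was the most abundant, at 288 against 106 CPM (2.70, 2.44 to 3.0), and it fell just under 2 times, to 1.97, with at least 1 UMI in place of 3. Helicase subunits ranged from Mcm4 at 1.78 (1.38 to 2.30) to Mcm7 at 3.60 (2.92 to 4.44). Clspn, the adaptor of the replication checkpoint, had the highest ratio of the list at 12.2 (8.63 to 17.7).

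Nucleotide supply followed, with 11 of 21 tested genes higher by 2 times or more, 0 lower by as much and a median log2 ratio of 1.04. The enzymes of deoxynucleotide synthesis led, with the thymidine kinase gene Tk1 at 166 against 12.7 CPM (13.1, 10.3 to 16.9), the thymidylate synthase gene Tyms at 121 against 10.2 CPM (11.9, 9.04 to 15.9) and the ribonucleotide reductase gene Rrm2 at 87.4 against 10.8 CPM (8.06, 6.12 to 10.7). Purine synthesis differed less, from Gmps at 1.22 (0.959 to 1.54) to Paics at 1.72 (1.42 to 2.08). In homologous recombination and the S phase checkpoint, 15 of 17 genes were higher by 2 times or more (median log2 ratio 2.12), among them Brca1, a repair gene, at 15.9 (8.45 to 33.0).

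The Hist genes, whose RNA is made in S phase, were 5.06 times as high in members when summed, at 2721 CPM (2662 to 2781) against 538 CPM (520 to 557). Of 67 such genes, 34 were tested and 30 of these were higher by 2 times or more, with 0 lower by as much and a median log2 ratio of 2.99. Hist1h2ae, for a core histone, was at 421 against 26.2 CPM (16.1, 13.6 to 19.1), and the linker histone gene Hist1h1b at 398 against 17.5 CPM (22.7, 18.6 to 28.0). Hist1h1c and Hist1h2bc, Hist genes with polyadenylated RNA outside S phase, differed little, at 1.15 (1.02 to 1.31) and 0.802 (0.675 to 0.949).

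The 3 lists of mitosis genes had the highest median ratios of all lists, though single genes outside them, such as Esco2, stood as high. Over the 3 mitotic lists, 77 of 79 genes were higher by 2 times or more and 0 were lower by as much, with a median log2 ratio of 3.66 against 0.12 over all genes tested. Their summed level was 9838 CPM (9726 to 9952) against 1557 CPM (1525 to 1589), a ratio of 6.32 (6.18 to 6.47), which became 3.49 with at least 1 UMI in place of 3. The 2 exceptions were Pttg1, which encodes securin, at 53.9 against 65.5 CPM (0.823, 0.681 to 0.991), and the kinetochore gene Zwint at 56.3 against 30.4 CPM (1.85, 1.49 to 2.30).

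Mitotic kinases, the spindle checkpoint and the ubiquitin ligase APC/C summed to a ratio of 5.14 (4.90 to 5.39). Ube2c, the ubiquitin enzyme that works with APC/C and whose promoter is printed above, was at 537 against 38.9 CPM (13.8, 12.0 to 15.9). The kinase genes Plk1, Aurka and Aurkb had ratios of 19.3 (13 to 29.9), 15.7 (9.12 to 28.9) and 15.2 (11.1 to 21.4). Centromere, kinetochore and chromosomal passenger genes reached the highest list ratio, 9.04 (8.56 to 9.55), with 29 of 30 higher by 2 times or more. Birc5 was at 337 against 26.7 CPM (12.7, 10.7 to 15), and a UMI of it was found in 80.6% of members (74.4% to 85.8%), 17.3% of other macrophages and 1 of 18 granulocytes. The kinetochore motor Cenpe had a ratio of 18.4 (13.7 to 25.2).

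All 30 genes of kinesins, spindle and cytokinesis were higher by 2 times or more, summing to 5423 against 898 CPM, a ratio of 6.04 (5.86 to 6.23). Tubulin Tubb5 was the most abundant, at 1455 against 376 CPM (3.87, 3.67 to 4.07), and Stmn1, which takes microtubules apart, was at 760 against 56.5 CPM (13.5, 12.0 to 15.1). Nusap1, a spindle protein, had a ratio of 25.3 (17.4 to 38.4), and Prc1, which bundles the midzone, one of 24.1 (17.8 to 33.2). For condensin and proliferative chromatin proteins, 26 of 27 genes were higher by 2 times or more, with a summed ratio of 4.13 (4.03 to 4.23). The histone variant gene H2afz stood at 1682 against 487 CPM (3.46, 3.30 to 3.62) and the chromatin protein gene Hmgb2 at 1396 against 238 CPM (5.87, 5.53 to 6.24).

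The members varied among themselves in where they stood in the cycle. Per 10000 UMIs, the replication list had a median of 15.8 in members (quartiles 7.5 and 34.5) against 5.99 in other macrophages, and the 3 mitotic lists one of 103 (71.2 and 127) against 15.6. Over the 201 members, which share library and pool, the Spearman correlation of the replication with the mitotic level was -0.22, and that of the mitotic level with the cell's UMIs was 0.07. There were 57 members below the median mitotic level and above the median replication level, and 43 below both medians. No phase was called for single cells, and 3 members had 0 UMIs of the replication list.

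Split into 3 bands of 67 members by their mitotic level, a division chosen after seeing the data, the members differed in which cycle genes were high. Ccne2 fell from 31.6 CPM (21.2 to 45.4) in the low band through 21.0 to 2.80 CPM (0.578 to 8.19) in the high band, and the licensing gene Cdc6 from 26.2 (16.8 to 38.9) through 16 to 4.67 CPM (1.52 to 10.9). Ccne1, Clspn, Rrm2 and Pcna did not fall in this order and were highest in the middle band, Ccne1 at 31.6, 42.1 and 16.8 CPM, Clspn at 79.6, 106 and 48.6 CPM, Rrm2 at 79.6, 116 and 67.3 CPM and Pcna at 354, 377 and 147 CPM, and for all 6 genes the intervals of the low and middle band overlapped. Over the same bands Plk1 went from 10.9 CPM (5.23 to 20) through 67.1 to 171 CPM (147 to 198), and Cdc20, the activator of APC/C in mitosis, from 26.2 through 56.1 to 187 CPM (162 to 215). Hist genes peaked in the middle band, at 3629 CPM (3512 to 3749) against 1363 CPM (1289 to 1441) in the low and 3038 CPM (2934 to 3144) in the high band. The summed replication list was level at 2491 and 2507 CPM in the low and middle band and 1327 CPM (1259 to 1398) in the high band. Plk1 and Cdc20 belong to the lists that made the bands, so their rise was built in, whereas Ccne2, Cdc6 and the Hist genes do not. The limits lay at 87.5 and 118 per 10000 UMIs, with 29 and 49 members within 10% of them, and median depth rose from 12755 through 14194 to 15326 UMIs, whose part was not tested. Core macrophage genes summed to 17184, 16744 and 16596 CPM, so their level changed little between the bands.

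**Figure D3:**
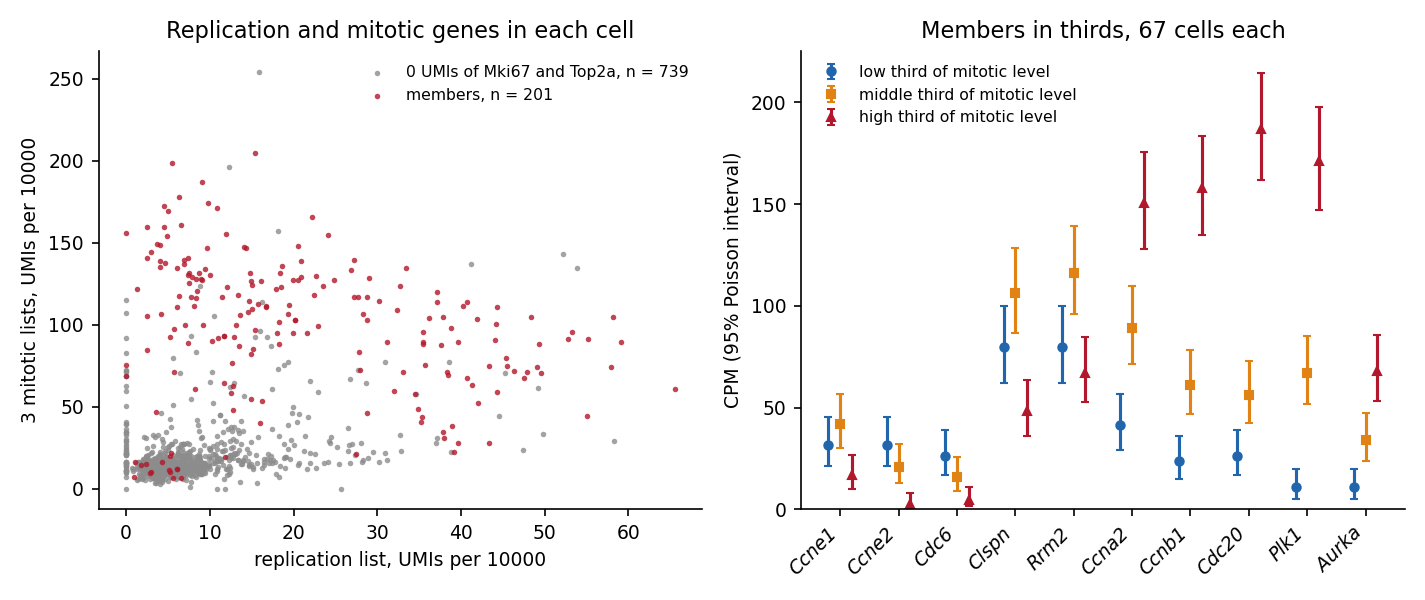
Left, summed level of the 3 mitotic lists against that of the replication list, each in UMIs per 10000, for the 201 members (red) and the 739 other macrophages (gray), 1 point per cell. Right, CPM with 95% Poisson intervals of 10 cycle genes in bands of the members by mitotic level, 67 cells each, with Ccne2 falling from 31.6 to 2.80 CPM and Plk1 rising from 10.9 to 171 CPM.

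Some cells without a UMI of Mki67 or Top2a reached the members' levels of cycle genes, and most of those with high mitotic levels were shallow. Of the 739 other macrophages, 286 (38.7%) reached the members' lower quartile of the replication list, 29 (3.92%) that of the mitotic lists and 22 (2.98%) both. The 29 cells had a median of 966 UMIs (519 to 12380), against 7638 in all other macrophages, and the part of depth in their levels was not tested. When the 29 cells were left out of the comparison group, an alternative added once these values were known, the ratio of the mitotic lists went from 6.32 to 6.55.

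The macrophage program was kept at somewhat lower levels. Of 20 core macrophage genes, 0 differed by 2 times or more in either direction, with a median log2 ratio of -0.21 and a summed level of 16826 CPM (16679 to 16974) against 22596 CPM (22476 to 22717), a ratio of 0.745 (0.737 to 0.752). The lysozyme gene Lyz2 made up much of the gap, at 5052 against 8558 CPM (0.590, 0.580 to 0.601), and without it, a split made with the values known, the ratio was 0.839 (0.828 to 0.849). Csf1r was slightly higher in members, at 489 against 446 CPM (1.10, 1.03 to 1.17), and so was the fractalkine receptor gene Cx3cr1, at 365 against 321 CPM (1.13, 1.05 to 1.22). Spi1, which encodes the lineage factor PU.1, was at 490 against 462 CPM (1.06, 0.995 to 1.13).

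Since cycle genes take up part of a cell's UMIs, levels of other genes in CPM are relative to them, and the summed 3 mitotic lists made up 9838 of 1000000 UMIs in members. Ribosomal protein genes were close to level, with Rpl and Rps genes at a ratio of 0.971 (0.968 to 0.975), 0 of 90 lower by 2 times or more, and 1 higher by as much, the kinase gene Rps6ka5, which shares only the letters of the name. The 13 glycolysis genes, 0 of which differed by 2 times or more, had a ratio of 0.919 (0.907 to 0.932), led by Gapdh at 4203 against 4222 CPM.

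Interferon genes did not follow division. None of 21 interferon response genes differed by 2 times or more, the median log2 ratio was -0.09, and the summed level was 3938 CPM (3867 to 4010) against 3970 CPM (3919 to 4020), a ratio of 0.992 (0.970 to 1.01) that lay between 0.982 and 1.12 over 12 alternatives. Within the list, the T cell attractant gene Cxcl10 was higher at 677 against 472 CPM (1.44, 1.35 to 1.52), and Cd274, which encodes the checkpoint ligand PD-L1, was lower at 66.3 against 110 CPM (0.602, 0.511 to 0.706). The antigen-presenting MHC class II genes, of which 0 of 8 differed by 2 times or more, summed to 26562 against 35065 CPM, a ratio of 0.757 (0.751 to 0.764), with the invariant chain gene Cd74 at 10791 against 14535 CPM.

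Several genes of hypoxia, stress and matrix turnover were lower in members. Hmox1, which encodes heme oxygenase, was at 126 against 509 CPM (0.248, 0.222 to 0.276), and the matrix gene Thbs1 at 41.5 against 116 CPM (0.358, 0.293 to 0.434). Vegfa, the vessel growth factor, was at 91.1 against 170 CPM (0.535, 0.467 to 0.613), while Spp1, which encodes osteopontin, differed less at 416 against 499 CPM (0.834, 0.780 to 0.891). The metalloproteinase genes Mmp12 and Mmp13 and the hypoxia genes Hilpda and Egln3 were also lower by 2 times or more, though with at least 2 UMIs per 10000 the ratios of Mmp12 (0.553), Hilpda (0.509) and Egln3 (0.550) fell short of that.

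The lipid-associated list moved the same way. Of 15 genes 0 were higher and 2 were lower by 2 times or more, with a median log2 ratio of -0.64 and a summed ratio of 0.551 (0.547 to 0.556), at 22330 against 40492 CPM. Apoe, the lipid carrier apolipoprotein E, made up most of it, at 16184 against 30427 CPM (0.532, 0.527 to 0.537), and the other 14 genes, a split chosen after seeing the data, gave 0.611 (0.601 to 0.621). The fatty acid binding protein gene Fabp5 was at 233 against 647 CPM (0.361, 0.332 to 0.391), Gpnmb at 9.71 against 29.2 CPM (0.333, 0.217 to 0.495), and the lipid receptor gene Trem2 at 472 against 717 CPM (0.659, 0.620 to 0.70). The lysosomal protease gene Ctsd was at 818 against 1496 CPM (0.547, 0.523 to 0.572).

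Tissue-resident genes were lower too, with 3 of 8 tested lower by 2 times or more, a median log2 ratio of -0.81 and a summed ratio of 0.637 (0.614 to 0.660). The 3 were F13a1, which encodes a coagulation factor subunit, at 20.1 against 98.7 CPM (0.204, 0.153 to 0.266), Gas6, a ligand of the receptor MERTK, at 10.7 against 30.7 CPM (0.349, 0.232 to 0.510), and Folr2, a folate receptor gene, at 11.1 against 27.5 CPM (0.402, 0.268 to 0.586). Folr2 turned to 1.10 with at least 1 UMI in place of 3. Lyve1, a marker of perivascular macrophages, had 1 UMI in members and 41 UMIs in other macrophages (0.0490, 0.00121 to 0.289), and Timd4 and Cd163 had 0 UMIs in members.

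Monocyte genes were mixed, with a summed ratio of 0.992 (0.966 to 1.02) and a median log2 ratio of -0.11 over 9 tested genes. Ly6a made up most of both sums, at 1610 of 2724 CPM in members and 1415 of 2746 CPM in other macrophages. The level sum therefore rests largely on this gene, which was higher in members. Ly6c2, a marker of fresh monocytes, was at 20.4 against 93.5 CPM (0.218, 0.165 to 0.285), a ratio that moved to 0.556 among cells of middle depth, between the members' lower and upper quartile of UMIs. Chil3, a chitinase-like gene, was the other 1 lower by 2 times or more, at 9.38 against 19.7 CPM, and it turned to 1.08 among cells of middle depth. The chemokine receptor Ccr2 of migrating monocytes was level at 60.6 against 61.2 CPM (0.990, 0.824 to 1.19).

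Chemokine and cytokine genes, 2 of 13 of which were lower by 2 times or more, split within the list around a median log2 ratio of -0.03 and a summed ratio of 0.928 (0.910 to 0.948). The monocyte attractants Ccl2 and Ccl12 were higher, with ratios of 1.46 (1.37 to 1.56) and 1.37 (1.30 to 1.43). Ccl5, a T cell attractant, was at 297 against 851 CPM (0.349, 0.324 to 0.375), Ccl6 at 93.4 against 222 CPM (0.421, 0.369 to 0.480), and the inflammatory cytokine gene Il1b at 257 against 375 CPM (0.686, 0.631 to 0.744). Il6 had 0 UMIs in both groups.

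Growth factor genes were sparse. Of 9, 5 were tested and 1, the insulin-like factor Igf1, was lower by 2 times or more, at 6.03 against 12.3 CPM from 18 and 74 UMIs, and it turned to 1.18 with at least 1 UMI in place of 3. Csf1, the ligand of CSF1R, was at 13.4 against 11.3 CPM (1.18, 0.779 to 1.77), Csf2 had 0 UMIs in both groups and Il4ra, a receptor of the cytokine that can drive macrophage division, was at 100 against 126 CPM (0.791, 0.690 to 0.906). Sterol synthesis and uptake, the process at the center of the study, was somewhat higher, with all 16 tested genes above 1, a median log2 ratio of 0.45 and a summed ratio of 1.40 (1.31 to 1.49). Only Idi1, an enzyme of isoprenoid synthesis, passed 2 times, at 2.46 (1.69 to 3.61). Of the 8 tested genes of the study's own pathway, 0 differed by 2 times or more, with Atp6v0a1 at 16.1 against 14.8 CPM (1.08, 0.746 to 1.56) and Tgfb1, which encodes the cytokine TGF-β1, at 172 against 176 CPM (0.979, 0.880 to 1.09).

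Of the 15 lowest ratios among genes with at least 50 CPM, 9 belonged to a list, and all 9 are given above except Mmp12 at 0.397 (0.349 to 0.451) and Mmp13 at 0.413 (0.317 to 0.531). The 6 outside the lists were the cystine transporter gene Slc7a11 at 0.290 (0.209 to 0.395), the Schlafen gene Slfn5 at 0.337 (0.277 to 0.408), the detoxifying enzyme gene Mgst1 at 0.385 (0.318 to 0.462), Il18bp, which encodes a trap for interleukin 18, at 0.444 (0.387 to 0.509), the injury protein gene Ninj1 at 0.458 (0.409 to 0.512) and AY036118, a transcript of a ribosomal DNA region, at 0.464 (0.423 to 0.509). These ratios are of pooled levels, and few cells held some of the genes. A UMI of Slc7a11 was present in 14.9% of members and 13.5% of other macrophages, and one of Mmp12 in 11.9% and 13.7%. AY036118 was found in 88.1% and 85.8%. Of 26 named genes lower in members by 2 times or more, 3 passed that limit under every alternative that gave a value, namely Hmox1 and the granulocyte genes S100a8 and S100a9. Csf3r held 22.1 of the 24.1 CPM of the granulocyte list in members, so S100a8 and S100a9 rested on very few UMIs there. They are markers of another cell type. A further 11, among them F13a1, Fabp5, Ccl5, Thbs1, Gadd45a, Mmp13 and Slc7a11, lost it only with at least 1 UMI in place of 3. The other 12, Mmp12, Hilpda, Egln3, Folr2, Gas6, Ly6c2, Chil3, Ccl6, Igf1, Il18bp, Ninj1 and AY036118, fell short of it under some other alternative.

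**Figure D4:**
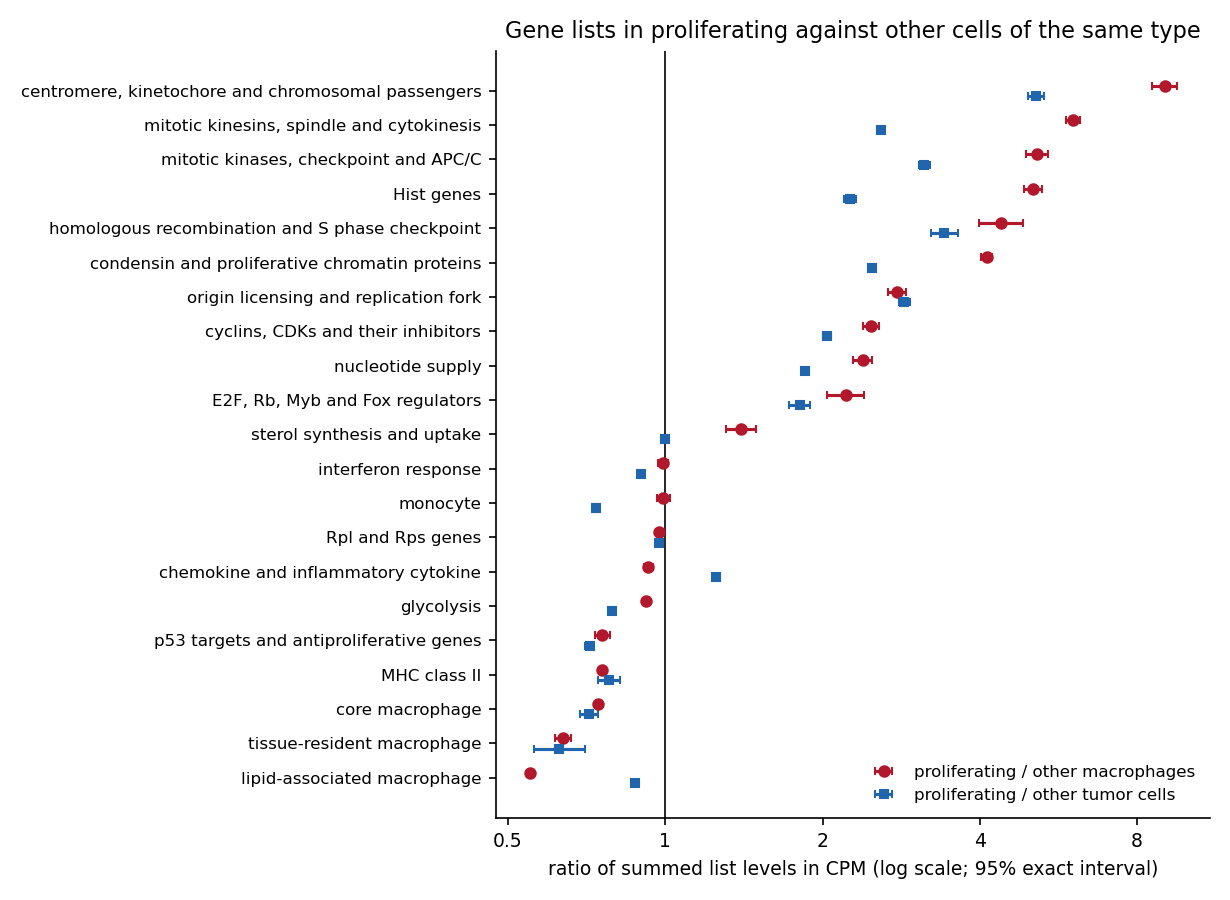
Ratio of summed list levels in CPM between proliferating and other cells of the same type on a log scale with 95% exact intervals, macrophages in red (201 against 739 cells) and tumor cells in blue (999 against 408 cells). The mitotic lists stand farthest to the right in macrophages, up to 9.04, and the lipid-associated list lies to the left at 0.551.

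The share of proliferating cells was also read across macrophage states, in 3 bands of 438 macrophages by the level of a list, which are ranges and not cell types. Across the lipid-associated list it fell from 22.6% (18.8% to 26.8%) in the low band through 17.1% (13.7% to 21.0%) to 6.16% (4.10% to 8.84%) in the high band. Depth ran the other way, with medians of 4312, 10336 and 10749 UMIs. After thinning to 5000 UMIs the shares were 30.1% (23.9% to 36.9%), 14.0% (10.5% to 18.1%) and 3.64% (2.0% to 6.03%). Thinning left out 232, 95 and 53 macrophages of these bands as too shallow. The thinned share of the low band thus covers only its 206 deepest cells, and the part of this loss was not tested. Without Apoe, which made up most of the list, the shares were 22.8%, 15.3% and 7.76%. There were 110 and 128 macrophages within 10% of the limits of the bands.

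Across tissue-resident genes the share went from 17.6% (14.1% to 21.5%) through 17.1% to 11.2% (8.39% to 14.5%), and after thinning from 18.2% through 14.0% to 6.36%. MHC class II had the highest share in the middle band, at 20.5% (16.9% to 24.6%) against 13.7% and 11.6%, and after thinning the shares were 14.9% (10.5% to 20.3%) in the low, 18.2% (14.1% to 22.9%) in the middle and 7.87% (5.41% to 11.0%) in the high band. By interferon level the bands were alike, at 15.5% (12.3% to 19.3%), 14.6% (11.4% to 18.3%) and 15.8% (12.5% to 19.5%), and at 11.5%, 14.4% and 13.2% after thinning. Monocyte genes, of which Ly6a was the most abundant, gave 13.2%, 18.5% and 14.2%, and 10.3%, 15.2% and 13% after thinning, with overlapping intervals. Thinning left out 185, 103 and 92 macrophages of the tissue-resident bands and 217, 119 and 44 of the MHC class II bands, from low to high. High cycle content lowers the level of every other list per UMI, and its part in these shares was not tested.

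**Figure D5:**
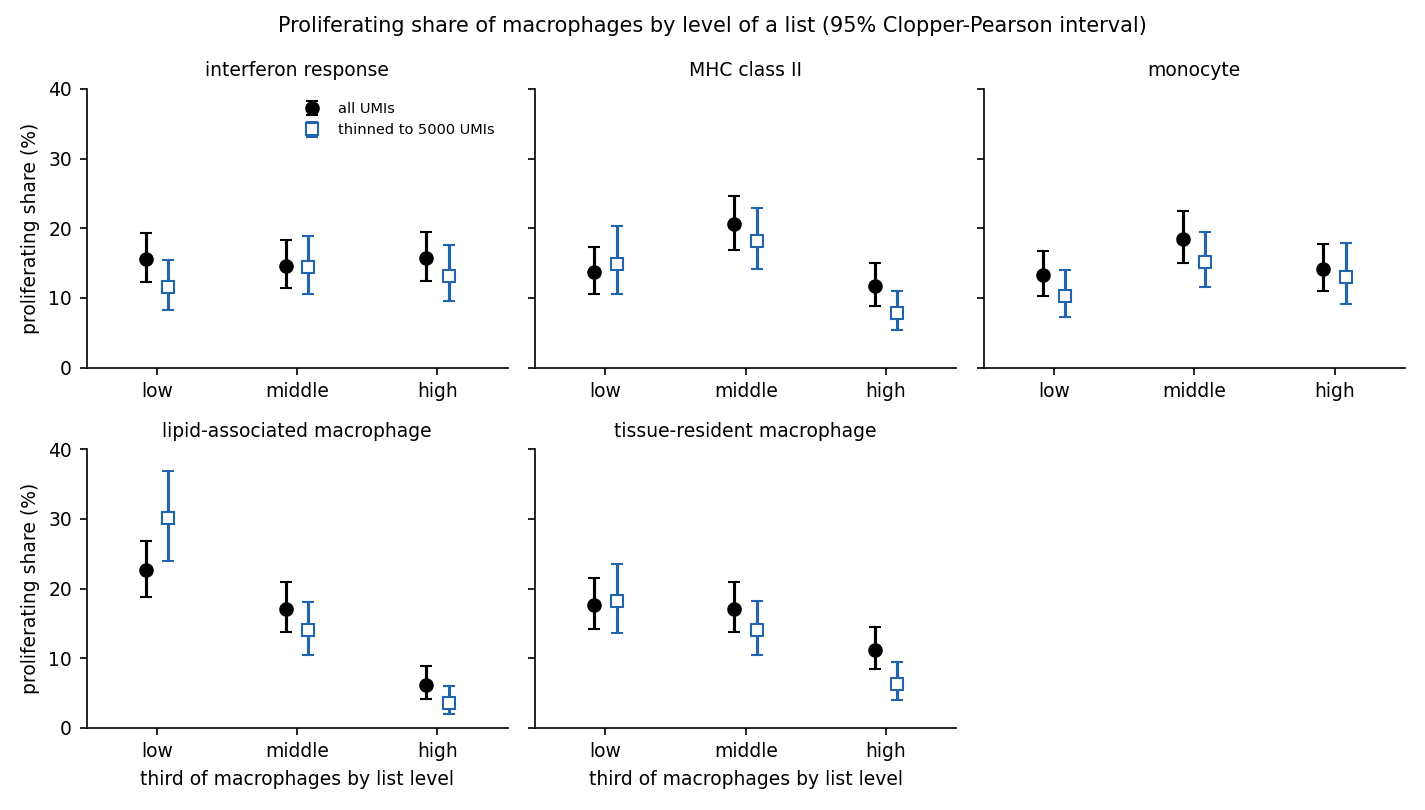
Share of proliferating cells in percent with 95% Clopper-Pearson intervals in bands of the 1314 macrophages by the level of 5 lists, from all UMIs (black) and after thinning to 5000 UMIs (blue), which left out shallower cells. The share falls from 22.6% to 6.16% along the lipid-associated list and stays near 15% along the interferon list.

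Set beside the other large group of dividing cells, the members had a like summed level of replication genes and more captured UMIs of Hist genes, with single genes far apart. In tumor cells, 5.37% of 7410 genes were higher in proliferating than in other tumor cells by 2 times or more and 1.62% were lower by as much, and 31 of 37 replication genes were among the higher ones, the same number as in macrophages. The summed replication list was at 2079 CPM in members and 2122 CPM (2110 to 2134) in proliferating tumor cells, a ratio of 0.980 (0.955 to 1.01). Within the list the ratio ran from 0.351 (0.287 to 0.426) for Pold2, a subunit of DNA polymerase delta, to 2.94 (2.18 to 3.91) for Wdhd1, which ties the helicase to DNA polymerase alpha. The 3 mitotic lists stood at 9838 against 8046 CPM (8023 to 8070), a ratio of 1.22 (1.21 to 1.24). Of these lists, centromere genes and kinesins were higher in members, at 1.34 (1.31 to 1.37) and 1.31 (1.29 to 1.33), and mitotic kinases, checkpoint and APC/C slightly lower at 0.958 (0.934 to 0.984). The Hist genes stood at 2721 against 1505 CPM (1.81, 1.77 to 1.85). How much of the histone RNA of either cell type the 3' library captured was not tested, so this is no measure of all histone RNA. Nucleotide supply was lower in members at 0.565 (0.549 to 0.582) and sterol synthesis at 0.372 (0.353 to 0.392), while p53 targets and antiproliferative genes were higher in sum at 1.96 (1.90 to 2.02). The genes of that last list ran from 0.0768 (0.0543 to 0.106) for Phlda3 to 31.8 (29.4 to 34.5) for Btg2. Gadd45a at 0.282 and Klf4 at 0.443 were also lower in members. Median depth was 13599 UMIs in members and 54973 UMIs in proliferating tumor cells, so 12 genes were also compared between cells of like depth, a choice made after seeing the data that left 102 members and 79 proliferating tumor cells, all of the 79 below the lower quartile of 35249 UMIs of the 999. The list ratios above were not compared at like depth.

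At like depth several regulators of the cycle differed between members and proliferating tumor cells. Ccnd1 was at 252 CPM (227 to 279) in members, 458 CPM (420 to 497) in proliferating and 235 CPM (210 to 262) in other tumor cells. Ccnd2 did not differ detectably, at 107 CPM (90.8 to 125) in members and 93.0 CPM (76.7 to 112) in proliferating tumor cells. The inhibitors stood higher in members, Cdkn1a at 151 CPM (132 to 173) against 52.7 CPM (40.6 to 67.3) and Cdkn1b at 82.2 CPM (68.1 to 98.3) against 34.6 CPM (24.9 to 46.7). Btg2 was at 556 CPM (518 to 595) against 46.9 CPM (35.5 to 60.8), a ratio of 11.8 in place of 31.8 over all depths. Rb1 was at 24.2 CPM (16.8 to 33.6) against 5.76 CPM (2.32 to 11.9). Dck, the salvage kinase for deoxycytidine, was at 78.7 CPM (64.9 to 94.5) against 17.3 CPM (10.7 to 26.4), whereas Rrm2, of new deoxynucleotide synthesis, was lower in members at 92.5 CPM (77.5 to 110) against 167 CPM (145 to 192). Stmn1 was at 769 CPM (725 to 816) against 313 CPM (282 to 346). Nme1, the most abundant nucleotide supply gene in members, was lower at 240 CPM (215 to 266) against 415 CPM (379 to 453), a ratio of 0.578 in place of 0.291. Cdk4 was lower too at 110 CPM (94.0 to 129) against 225 CPM (199 to 253), 0.492 in place of 0.314, and Hmgb2 higher at 1497 CPM (1435 to 1562) against 1128 CPM (1069 to 1189), 1.33 in place of 1.97. Most of these ratios lay nearer 1 at like depth, with Rb1 at 4.19 in place of 7.79 and Cdkn1a at 2.87 in place of 4.82, and none of the 12 changed direction. The differences between dividing cells of the 2 types were not set against a spread between tumors, which the pool does not give.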

How the data were processed

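Processing started from the UMI counts that the authors deposited, per gene and called cell and without normalization. Their file header names Cell Ranger 5.0.1 and their methods CellRanger V3, both with GRCm38/mm10, and which version made the counts is not known beyond the header. Cells were kept when they had 200 genes or more and no more than 20% mitochondrial UMIs. The members and the gene lists were chosen with earlier results of these data known. UMIs were summed over a group and given per 1000000 (CPM), and a gene was tested with at least 10 CPM in the higher group. Where a count was 0, the limit is that of 3 counts. The genes to be named were those of the lists, the Hist, Rpl and Rps genes, and the 15 with the highest ratio, the lowest ratio and the highest ratio outside the cycle lists among genes with at least 50 CPM. For 38 symbols with more than 1 gene ID the ID with the most UMIs was used. Some of these genes and 1 list are not reported here. Promoters came from RefSeq and gene positions from GENCODE M21. Alternatives were other filters and limits for cells, macrophages, members and genes, cells of middle depth (between the members' lower and upper quartile of UMIs), thinning to 5000 UMIs, means over cells, and removal of doublets scored against 2 simulated doublets per cell among 50 neighbors. A further 5 alternatives were chosen after seeing the data. The processing was tested on simulated data. Tables were made in Python 3.11.15, with pandas 2.3.3, scipy 1.17.1 and numpy 2.4.6, and drawings with matplotlib 3.10.9.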

Additional observations from a re-analysis of the deposited data

How the results depend on the processing

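The share of proliferating cells among macrophages was 17.4% with at least 1000 genes, 13.4% without cells that held a UMI of Rhox5 or Shisal2b, 11.6% with at least 5 UMIs, 43.8% with at least 1 UMI, 23.1% with at least 2 UMIs per 10000 and 18.5% in cells of middle depth. Genes higher by 2 times or more numbered 254 with at least 1 UMI and 186 with at least 50 CPM, where fewer genes were tested, and between 548 and 773 under the other alternatives. Genes lower by 2 times or more numbered 15 with at least 1 UMI, 58 with at least 2 per 10000, 141 at middle depth, 190 after thinning, 224 as means over cells, 166 with at least 5 CPM and 17 with at least 50 CPM.

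With at least 1 UMI, the summed ratio of members to other macrophages was 1.97 for the replication list, 3.49 for the 3 mitotic lists and 0.775 for the lipid-associated list. At middle depth these were 3.11, 7.11 and 0.567, and after thinning 2.97, 6.82 and 0.545. Means over cells gave 2.48 for replication, 4.53 for mitosis and 0.653 for the lipid list, and at least 2 UMIs per 10000 gave 2.64 for replication. At least 1000 genes gave 6.62 for mitosis and 0.543 for the lipid list, at least 5 UMIs 7.0 and 0.519, no UMI of Rhox5 or Shisal2b 6.17 for mitosis, the stricter C1q limit 0.546 and removal of doublets 0.535 for the lipid list. Leaving out other macrophages with high mitotic levels, chosen after seeing the data, gave 6.55 for mitosis. These 3 list ratios kept their direction under all 12 alternatives each.

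Directions reversed for Cdc45 as a mean over cells (0.997), Folr2 (1.10) and Igf1 (1.18) with at least 1 UMI, and Chil3 at middle depth (1.08). The causes were not tested. Of 231 named genes higher by 2 times or more, 200 passed that limit under every alternative. For 30 genes some alternatives gave no ratio because both groups had 3 UMIs or fewer. The pair's UMIs depend on the depth of the cell, and 1 pooled library gives no spread between animals.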
